A study of Mus musculus with 24 samples.

Results

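Kit+ CD45+ cells were compared with Kit+ CD45- cells of mouse embryos under a control antibody, across all genes of a raw count table. The comparison rests on 8 of the 24 RNA-seq libraries of the study: the 4 titled as CD31+ Kit+ CD45+ control cells and the 4 titled as CD31+ Kit+ CD45- control cells, chosen by title and not by any measured value. All embryos were of the C57BL/6J strain at stage E10.5. Each was injected into the heart with anti-human IgG and then incubated at 37 °C under 5% CO2 for 5 h, in myeloid long-term culture medium, to which 10 ng/ml IL-3, 10 µM hydrocortisone and 5 µg/ml of the same antibody had been added. Cells were released with 0.1% collagenase and isolated by fluorescence-activated sorting, and their polyA RNA was amplified as cDNA by long-distance PCR before library preparation. By the sort gates named in the titles, the cells compared here are CD31+ and Kit+ and differ by the CD45 gate. All had been exposed to IL-3 and to hydrocortisone. The same populations after injection of anti-Dll4, an antibody against a Notch ligand, gave another 8 libraries, used below as a separate measurement of the contrast, and 4 libraries of Kit- CD41+ CD45- cells under IgG give a reference level for platelet genes. The labels do not say how many embryos were pooled for a library, so the p-values given here reflect only the spread among libraries, which may be technical in part.

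CD31, the product of Pecam1, is a junction protein of endothelium that blood cells leaving the endothelium retain. At this stage hemogenic endothelial cells of the dorsal aorta round up into clusters whose cells carry Kit, the receptor for stem cell factor, and the cells of these clusters acquire CD45, the tyrosine phosphatase encoded by Ptprc, as they become definitive blood cells. Yolk sac blood circulates through the same vessels: primitive red cells with embryonic globins, megakaryocytes, and early macrophages. The myeloid fate is driven by the ETS factor PU.1 (Spi1) with C/EBP and IRF partners, and the erythroid and megakaryocytic fates by GATA1, its partner FOG1 (Zfpm1), KLF1 and GFI1B. Primordial germ cells of the mouse also carry Kit and CD31.

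The 4 CD45+ libraries held 9112568 to 10994775 counts and the 4 CD45- libraries 8718351 to 10412198, with 18721 to 21093 and 19011 to 20474 genes counted at least once. The share of counts from globin genes was 0.0087% to 0.0218% in CD45+ libraries and 16.8% to 33.7% in CD45- libraries. The groups did not overlap, at the smallest p that 4 against 4 libraries allow (two-sided exact permutation test, p = 0.0286, 0.0714 after Benjamini-Hochberg adjustment over 5 library measures). The 50 most counted genes took 11.2% to 12.8% and 26.0% to 43.0% of counts, with the same p. Replicate 1 stood apart in both groups: its counts differed from those of the other 3 by a chi-square of 35.29 to 48.75 per degree of freedom in CD45+ cells and 50.16 to 94.38 in CD45- cells, against 11.7 to 17.25 among the other replicates. All 8 IgG libraries carried Xist, at 135 to 205 and 186 to 294 CPM, and none carried a count of the Y-linked Ddx3y; under anti-Dll4 Xist ranged from 0.0931 to 168 CPM in CD45+ libraries and from 0.683 to 436 in CD45- libraries, and Ddx3y from 0 to 116 and from 0 to 71.5.

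Values below are CPM, counts per 1000000 of a library's total scaled by TMM factors, given for replicates 1 to 4 in that order. Fold changes are log2 values of CD45+ over CD45-, with their standard error (SE), from edgeR's quasi-likelihood test fitted to all 24 libraries. A gene was called where its p, adjusted by Benjamini-Hochberg over the 15618 genes tested, was under 0.05, and only called genes are said to have risen or fallen. A level of 3 counts per library is the floor, 0.1996 to 0.269 CPM in CD45+ libraries and 0.277 to 0.4101 in CD45- libraries on the same scale: where a group had no count at all, the fold is a lower bound against the mean floor of its 4 libraries. Reads carry no molecular identifiers, so the floor covers counting error only. In sorted bulk samples fewer cells of a type and less RNA per cell cannot be told apart, which holds for every level given below.

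Blood, immune and red cell genes separated the populations, within a broad difference across the transcriptome. Of the 15618 genes, 2998 were called (19.2%): 1564 rose in CD45+ cells (10.0%) and 1434 fell (9.18%). Counts of called list members given below are to be read beside these shares. The median change was 1.16 among those that rose and -1.59 among those that fell, against 0.04 over all genes tested. With upper-quartile scaling in place of TMM the split turned to 1228 higher and 1707 lower, 41.8% higher against 52.2%, while the median over all genes moved by only -0.093. Without CD45+ replicate 1 there were 2578 calls, without CD45- replicate 1 3397, and without replicate 1 of both groups 2974 (1616 higher, 1358 lower). Libraries did not overlap between groups for 1708 genes on the higher side (10.9%) and 1373 on the lower (8.79%). Among the called genes 1451 of those that rose and 1281 of those that fell were protein-coding, and 28 and 49 were long intergenic RNAs.

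The contrast was measured again in the 8 anti-Dll4 libraries, where 4560 genes were called (29.2%): 2590 higher (16.6%) and 1970 lower (12.6%). Counts of list members called under anti-Dll4 are to be read beside these shares. Of the 1564 genes that rose under IgG, 1551 (99.2%) were higher there too and 1283 (82.0%) were called higher. Of the 1434 that fell, 1366 (95.3%) were lower and 1057 (73.7%) were called lower, and no gene was called in opposite directions. The difference of the contrast between the antibodies was called for 2 genes (0.0128%), described with the platelet genes. At an unadjusted p under 0.05 that test gave 924 genes (5.92%). With upper-quartile scaling the anti-Dll4 split was 46.2% higher in place of 56.8%. Without replicate 2 of every group 2703 genes were called under anti-Dll4, and without replicate 4 2351.

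**Figure D1:**
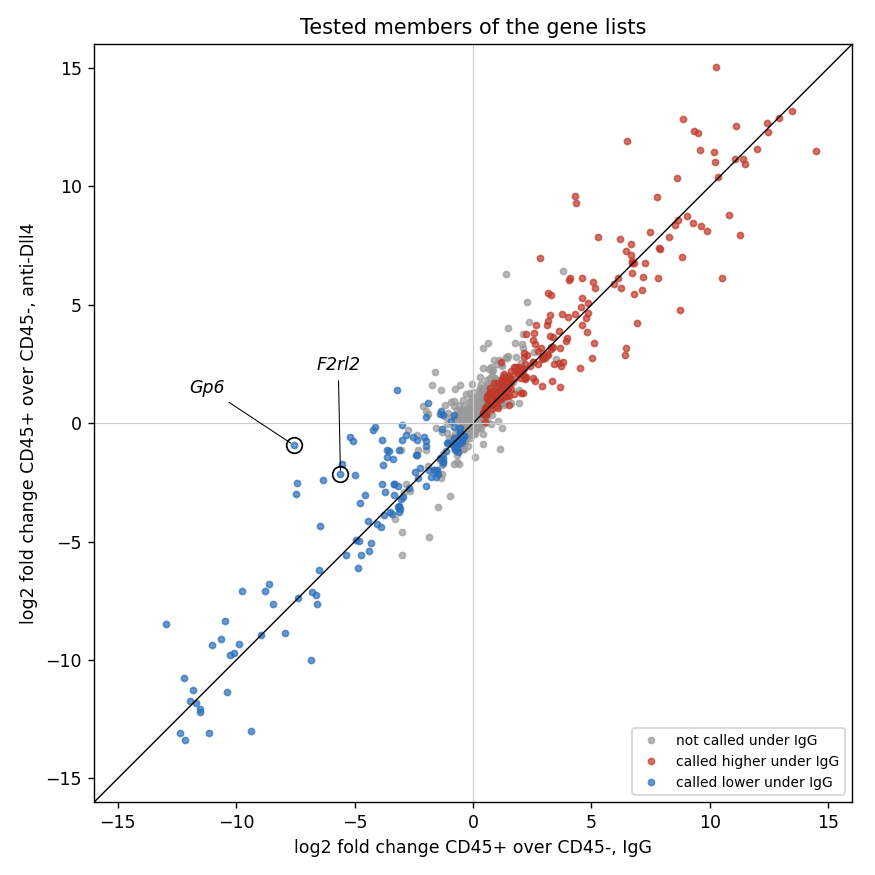
Log2 fold change of Kit+ CD45+ over Kit+ CD45- cells under IgG (horizontal axis) and under anti-Dll4 (vertical axis) for the tested members of the gene lists; each point is a gene, coloured by its call under IgG, and the line marks equal change (for genes with no count in a group the fitted value depends on the prior count). Called genes lie along the line in both directions, and the labelled platelet genes F2rl2 and Gp6, the only 2 whose difference was called, lie above it.

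The transcripts of the sorting antigens matched the gates. Ptprc (chromosome 1, 138062861 to 138175708, mm10, ENSMUSG00000026395.16) stood at 55.1, 104, 53 and 117 CPM in CD45+ libraries and 0.277, 0, 1.46 and 1.51 in CD45- libraries. The lowest CD45+ library was far above the highest CD45- library, a log2 fold change of 6.65 (SE 0.679, adjusted p = 5.33e-07). Kit stood at 76.1, 46.9, 74.6 and 45.4 against 44.8, 35.7, 34.4 and 36.5 CPM, a difference of 0.68 that was not called (adjusted p = 0.0795), although every CD45+ library was above every CD45- one. Pecam1 stood at 264, 295, 269 and 174 against 253, 102, 124.8 and 141 CPM (0.69, adjusted p = 0.0829). Both groups thus carried the CD31 and Kit transcripts; without CD45- replicate 1, the highest of its group, Pecam1 was called at an adjusted p = 0.00763. Itga2b, which encodes CD41, fell by 2.00 (adjusted p = 0.000504), at 11.04 to 17.4 against 29.9 to 102 CPM.

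Transcription factors divided along the myeloid and erythroid lines. Spi1 (chromosome 2, 91082390 to 91115756) stood at 316, 244, 309 and 361 CPM in CD45+ libraries against 31.5, 39.0, 36.9 and 50.7 in CD45- libraries, a rise of 2.96 (SE 0.263, adjusted p = 1.87e-08). Its 4 values were close together and nowhere near those of the other group, replicate 1 included. Of 33 haematopoietic factors tested, 10 rose and 7 fell, against 10.0% and 9.18% of all genes tested. Cebpb, the C/EBP factor of macrophages and of emergency granulopoiesis, stood at 197, 339.6, 352 and 383 against 48.7, 61.0, 50.7 and 61.8 CPM (2.52, adjusted p = 3.96e-07). Cebpa, the C/EBP factor of granulocyte-monocyte progenitors, was at 0.838 CPM or less in each of the 8 libraries and was too low to test. Irf8, which directs monocyte and dendritic cell fate, rose by 4.02, to 49.2 to 65.0 CPM against 1.34 to 6.18 (adjusted p = 0.000196). Irf5, which mediates Toll-like receptor signals, rose to 42.0 to 63.2 CPM against 8.18 to 11.3 (2.43, adjusted p = 3.51e-08). Runx1, which the endothelial-to-blood transition requires, rose by 1.20 (SE 0.238, adjusted p = 0.000808), Hhex, a homeobox factor of endothelium and early blood, by 1.00 (adjusted p = 0.00222), and Hlf, a factor of embryonic and adult stem cells, by 2.73 (adjusted p = 0.00146).

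On the other side, Gata1 stood at 0, 24.4, 16.1 and 19.1 CPM in CD45+ libraries and 89.3, 197, 132 and 176 in CD45- libraries, and fell by 3.32 (SE 0.578, adjusted p = 0.000203). It had no count in CD45+ replicate 1 and was present in the other 3. Klf1 fell by 4.42 (adjusted p = 7.5e-07), Gfi1b by 2.22 (adjusted p = 4.94e-06), Tal1 by 1.86 (adjusted p = 9.7e-06) and Zfpm1 by 1.27 (adjusted p = 0.00217). Nfe2, a factor of late megakaryocytes and red cells, fell by 0.87. Factors shared by endothelium and progenitors were not called: Fli1 stood at 59.8 to 68.5 against 30.9 to 72.0 CPM, Lyl1 at 7.80 to 12.9 against 8.95 to 13.5, Mecom at 18.5 to 20.1 against 12.99 to 29.5 and Meis1 at 30.4 to 47.2 against 32.3 to 50.2. These 4 pairs of ranges overlap, and the changes were 0.22, -0.05, -0.03 and -0.11.

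**Figure D2:**
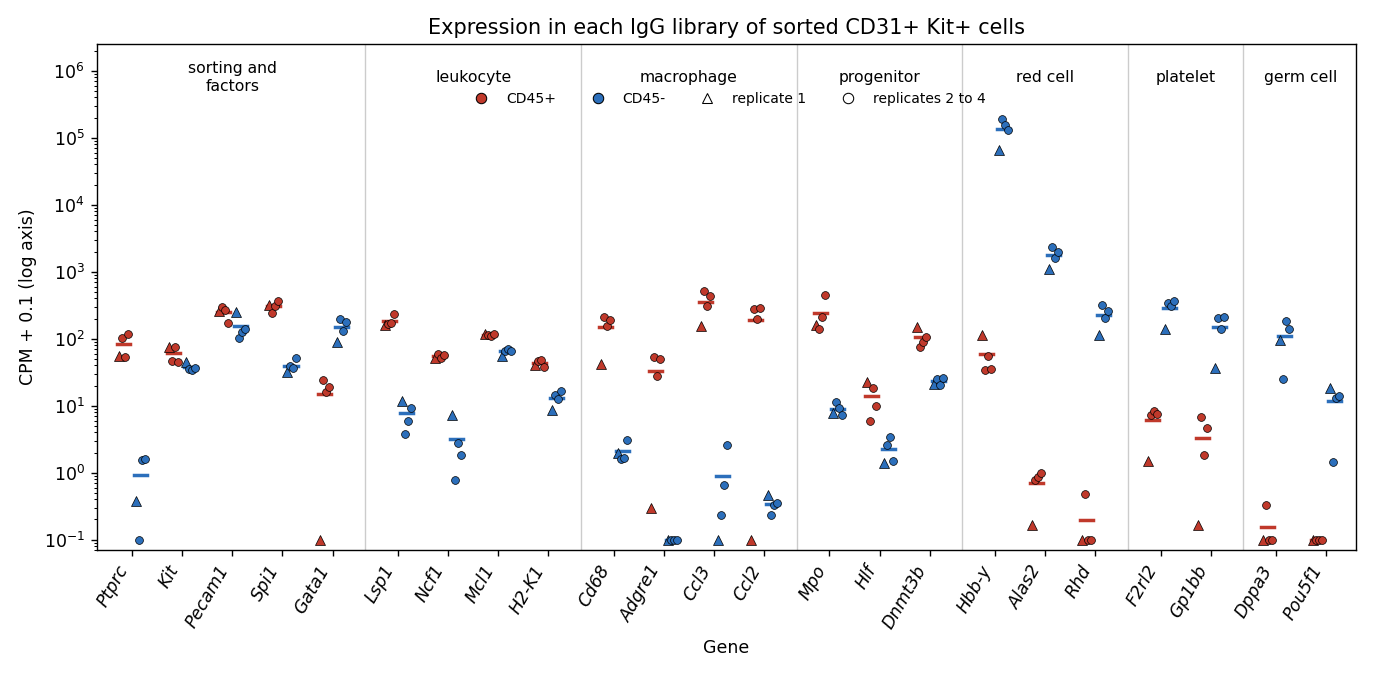
Expression in CPM, with 0.1 added and on a log axis, of transcription factors and of genes of each group described in the text; each point is a library, CD45+ in red and CD45- in blue, with replicate 1 drawn as a triangle, and the bar is the mean of 4. Spi1 and Ncf1 separate with all 4 CD45+ libraries close together, and Lsp1 separates with CD45+ replicate 4 set apart as the highest. Adgre1 and Ccl2 are low in CD45+ replicate 1, and Alas2 and Rhd are under 1 CPM in all CD45+ libraries.

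The promoters of 3 genes that rose and 3 that fell, the 250 bases before the start of transcription from RefSeq (GRCm38.p6), are shown so that the letters bound by the factors above can be seen beside the changes. The 6 were chosen with their values known from the genes with the smallest p, or for Cd53 the largest fold, where the window lies outside the annotated gene. Capitals mark GAGGAA (the core bound by PU.1), AGATAA (bound by GATA factors), CCNCACCC (bound by KLF factors) and TGTGGT (bound by RUNX factors), on the printed strand or as their reverse complement. The promoters of Cd68, a lysosomal glycoprotein of macrophages, Ccl3, a chemokine, and Cd53, a leukocyte tetraspanin, belong to genes that rose. Those of Rhd, a blood group antigen, Trim10, a ubiquitin ligase of erythroid cells, and Sptb, the erythroid beta spectrin, belong to genes that fell. The windows are Cd68 at chr11:69666171-69666420 (minus strand), Ccl3 at chr11:83649379-83649628 (minus strand), Cd53 at chr3:106790150-106790399 (minus strand), Rhd at chr4:134864286-134864535 (plus strand), Trim10 at chr17:36869324-36869573 (plus strand) and Sptb at chr12:76710548-76710797 (minus strand).
Cd68: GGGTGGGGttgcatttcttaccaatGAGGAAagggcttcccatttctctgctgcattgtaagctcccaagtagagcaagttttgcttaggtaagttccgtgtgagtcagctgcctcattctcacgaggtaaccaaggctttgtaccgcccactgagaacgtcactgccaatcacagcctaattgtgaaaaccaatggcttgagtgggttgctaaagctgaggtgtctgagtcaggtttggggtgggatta
Ccl3: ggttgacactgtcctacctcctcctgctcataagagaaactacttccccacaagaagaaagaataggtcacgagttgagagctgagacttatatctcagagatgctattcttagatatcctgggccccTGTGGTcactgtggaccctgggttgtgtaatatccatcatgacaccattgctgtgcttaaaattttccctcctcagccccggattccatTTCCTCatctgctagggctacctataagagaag
Cd53: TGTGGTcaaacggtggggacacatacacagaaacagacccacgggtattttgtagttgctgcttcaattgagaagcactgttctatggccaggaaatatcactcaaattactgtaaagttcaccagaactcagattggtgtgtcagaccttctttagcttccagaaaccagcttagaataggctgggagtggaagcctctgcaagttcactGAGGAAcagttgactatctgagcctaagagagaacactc
Rhd: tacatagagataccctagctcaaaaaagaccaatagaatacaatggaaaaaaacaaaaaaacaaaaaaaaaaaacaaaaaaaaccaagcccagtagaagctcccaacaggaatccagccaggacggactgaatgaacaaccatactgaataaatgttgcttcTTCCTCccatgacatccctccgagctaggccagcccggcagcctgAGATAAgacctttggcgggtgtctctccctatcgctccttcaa
Trim10: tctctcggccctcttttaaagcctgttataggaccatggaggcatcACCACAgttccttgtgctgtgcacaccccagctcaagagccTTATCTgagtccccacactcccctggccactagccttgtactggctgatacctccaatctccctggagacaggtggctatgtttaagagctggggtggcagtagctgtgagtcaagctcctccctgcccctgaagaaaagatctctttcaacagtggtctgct
Sptb: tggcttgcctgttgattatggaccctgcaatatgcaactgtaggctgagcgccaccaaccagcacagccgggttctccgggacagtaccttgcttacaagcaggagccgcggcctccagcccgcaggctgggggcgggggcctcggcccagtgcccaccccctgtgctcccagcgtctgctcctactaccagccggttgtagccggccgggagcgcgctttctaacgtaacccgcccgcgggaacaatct

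In these windows the PU.1 core lies 225 to 220 bases before the start in Cd68 and 39 to 34 in Cd53, both on the sense strand, and 33 to 28 in Ccl3, on the antisense strand. The GATA letters lie 43 to 38 bases before the start in Rhd, on the sense strand, and 163 to 158 in Trim10, on the antisense strand. Rhd also holds a PU.1 core, at 88 to 83 on the antisense strand, and the Sptb window holds none of the 4 motifs. A KLF match lies 250 to 243 bases before the start of Cd68 on the antisense strand, and a RUNX match at 250 to 245 in Cd53 and 122 to 117 in Ccl3 on the sense strand and 204 to 199 in Trim10 on the antisense strand. GAGGAA was found on either strand in 23.3% of all 32851 promoters, in 28.5% of 1532 promoters of genes that rose (promoters matched for 1153 of the 1564) and in 18.8% of 1364 promoters of genes that fell (1059 of the 1434). AGATAA was found in 9.99%, 7.57% and 7.77%. Promoters were matched for 14 of the 23 genes named by smallest p or largest fold on the higher side. On the lower side they were matched for 18 of 21. GAGGAA was in 53.3% of these 15 promoters on the higher side and 22.2% of 18 on the lower side, and AGATAA in 6.67% and 38.9%. In the same promoters CCNCACCC was found in 20% and 33.3% and TGTGGT in 33.3% and 11.1%. CCNCACCC was in 14.9% of all promoters, 19.4% of those that rose and 18.9% of those that fell, and TGTGGT in 14.0%, 13.4% and 13.2%. The 32851 promoters are those of 27025 genes, whether tested here or not. A match is a run of letters in a short window and not a measured site; the 4 motifs share no letters among these matches.

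Of 30 tested signalling and cytoskeletal genes of leukocytes, 22 rose and none fell, with a median change of 1.94. CD45+ replicate 1 was the lowest of its group in 18 of the 30. Lsp1, an actin-binding protein of leukocytes, stood at 161, 168, 171 and 237 CPM against 11.8, 3.69, 5.72 and 9.06, a rise of 4.59 (SE 0.408, adjusted p = 1.9e-08). Coro1a, a coronin of leukocytes, stood at 499, 482, 440.1 and 697 against 37.4, 84.5, 77.3 and 119.8 (2.73, adjusted p = 2.46e-07), and Cd53 at 39.9, 217, 175 and 212 against 0, 0.957, 2.35 and 2.64 (6.79, adjusted p = 4.58e-07). Coro1a was therefore abundant on both sides, whereas Cd53 was at most 2.64 CPM in CD45- cells. Lcp1, an actin bundler, rose by 2.53, Laptm5, a lysosomal regulator of antigen receptors, by 2.01, the Src-family kinase Lyn by 1.16, the phosphatase Ptpn6 (SHP-1) by 1.58 and the small GTPase Rac2 by 1.89. Fermt3, the leukocyte and platelet kindlin, was not called (-1.12, adjusted p = 0.0704, or 0.0287 and called lower without CD45- replicate 1), nor was the integrin chain Itgb2 (1.06, adjusted p = 0.166, or 0.0458 without CD45- replicate 2).

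The genes with the smallest p or the largest fold among those that rose included several outside any list. Rnf130, a ubiquitin ligase of the Goliath family, stood at 216, 259, 278 and 273 CPM against 77.1, 68.5, 63.8 and 59.4 (1.93, SE 0.136, adjusted p = 6.09e-10). The spread within each group was small beside the gap. Alox5ap, the partner of 5-lipoxygenase in leukotriene synthesis, rose to 95.8 to 156 CPM against 15.2 to 25.02 (2.55, adjusted p = 1.92e-09), and Capg, an actin-capping protein of macrophages, to 202 to 294 against 47.0 to 63.7 (2.26, adjusted p = 5.49e-09). Casp8, the initiator caspase of death receptors, rose by 1.69 (adjusted p = 8.44e-09) and Nrros, which anchors latent TGF-beta on myeloid cells, by 2.70 (adjusted p = 8.58e-09). Unc93b1, which carries nucleic acid-sensing Toll-like receptors to endosomes, stood at 13.5, 62.1, 35.1 and 64.3 against 2.40, 0.820, 0.897 and 2.90 CPM (4.62, adjusted p = 8.3e-06).

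Macrophage genes rose with a large fold and an uneven spread. Of 22 tested, 20 rose and none fell. The median change was 6.99, or 6.39 with the 6 genes absent from CD45- cells set at their lower bound. With the 8 IgG libraries alone 17 were high enough to test and 15 rose, with a median of 6.70. Cd68 stood at 41.2, 211, 155 and 190.4 CPM against 1.84, 1.504, 1.57 and 3.02 (6.23, SE 0.467, adjusted p = 1.41e-09). C1qc, a chain of complement C1q, stood at 22.1, 388, 286 and 402 CPM with no count in CD45- libraries, at least 784-fold higher (adjusted p = 4.31e-08). Adgre1, which encodes F4/80, stood at 0.200, 54.0, 27.8 and 49.6 CPM and had no count in CD45- libraries, and Mrc1, the mannose receptor, at 1.93, 203, 83.9 and 115 against 2.40, 0.547, 0.112 and 0.629 CPM. Replicate 1 was the lowest CD45+ library for each of these 4 genes, and for Mrc1 it lay inside the range of the CD45- libraries. Over the list it was the lowest of 4 in 21 of 23 genes, at a median of 6.16% of the mean of the other 3. Over all genes tested replicate 1 was the lowest in 37.5%, and over the genes that rose it was the lowest in 44.5% with a median of 92.2%.

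The same library was low in the other genes that tissue macrophages express and in some further lists, and not in the median of progenitor lists. Its median level relative to the mean of the other 3 CD45+ libraries was 16.4% for chemokines and their receptors, 19.99% for pattern recognition and IL-1 genes and 22.7% for Fc receptors and ITAM signalling. It was 63.0% for leukocyte signalling, 84.4% for granulocyte-monocyte progenitor genes and 109% for haematopoietic transcription factors. For stem and progenitor genes it was 146%, and the library was the highest in 14 of 25. It was 64.1% for platelet genes, 71.0% for the respiratory chain and 71.5% for heme and iron genes. On the same measure CD45- replicate 1 was at 39.9% for leukocyte signalling and 43.5% for Fc receptors and ITAM signalling. That library was at 64.1% for pattern recognition and IL-1 genes and 75.9% for macrophage genes, and was not low for chemokines. Whether both replicate 1 libraries share a cause was not tested. The anti-Dll4 CD45+ libraries all carried macrophage genes: Adgre1 ranged from 16 to 49.96 CPM, Mrc1 from 57.2 to 99.8 and C1qc from 152 to 338. Without CD45+ replicate 1 the macrophage list kept 20 called members, and without replicate 1 of both groups it had 21. Macrophage transcripts summed to 279 CPM in replicate 1 and up to 3269 CPM in the other CD45+ libraries, against 66.6 to 73.9 CPM in CD45- libraries, and their part in the other changes was not tested.

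**Figure D3:**
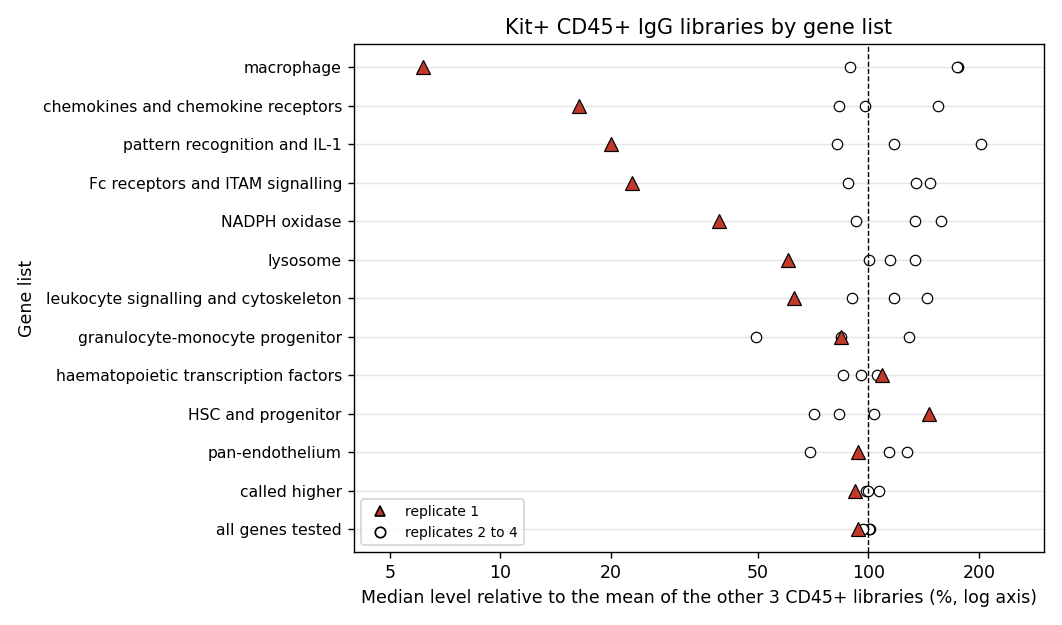
Level of each Kit+ CD45+ library relative to the mean of the other 3, as the median over the genes of a list (horizontal log axis, in percent), with replicate 1 drawn as a triangle and replicates 2 to 4 as circles. Replicate 1 lies at 6.16% for macrophage genes and 16.4% for chemokines and at 84.4% for granulocyte-monocyte progenitor genes, 109% for haematopoietic transcription factors and 146% for stem and progenitor genes.

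Chemokines of the CC family rose together. Of 21 chemokine and receptor genes tested, 13 rose and none fell, with a median of 7.13, or 5.65 with the 4 genes absent from CD45- cells at their bound. With the 8 IgG libraries alone 14 were high enough to test and 7 rose, with a median of 3.68. The rest passed the filter on low counts only with the other libraries of the study included. Ccl3 and Ccl4, neighbouring genes, stood at 156, 517, 303 and 440.2 and 57.6, 572, 218 and 254 CPM in CD45+ libraries. Ccl3 was at 0, 0.137, 0.560 and 2.52 CPM in CD45- libraries, a rise of 8.85 (SE 0.624, adjusted p = 6.09e-10), and Ccl4 at 0, 0, 0.336 and 0.126 (11.09, adjusted p = 7.56e-10). Both were present in every CD45+ library, replicate 1 included. Ccl9 stood at 96.4, 185, 152 and 320.3 CPM against 1.66, 0.410, 1.12 and 2.01 (7.13, adjusted p = 2.97e-06) and Ccl6 at 9.45, 250.4, 154 and 323 against 2.67, 0.273, 1.34 and 2.52 (6.70, adjusted p = 2.85e-06). The ligands of CCR2 had another pattern: Ccl2 stood at 0, 278, 197 and 292 CPM and Ccl7 at 0, 78.1, 58.1 and 127, absent from replicate 1 and abundant in the other 3. The stromal ligand Cxcl12 (3.76 to 6.05 against 4.33 to 8.18 CPM) and its receptor Cxcr4 (2.57 to 3.85 against 2.32 to 7.40) were not called.

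Sensors of microbial products and the IL-1 system rose, 17 of 21 tested genes, and none fell (median 5.09, or 3.65 with 5 genes at their bound). With the 8 IgG libraries alone 17 were high enough to test and 13 rose, with a median of 3.62. Cd14, the co-receptor for endotoxin, stood at 7.72, 308, 211 and 214 CPM against 0, 0, 0.336 and 0.252 (10.22, adjusted p = 2.26e-07), and Clec7a, the receptor for beta-glucan known as dectin-1, at 16.5, 37.7, 30.9 and 40.5 against 0, 0, 0 and 0.126. Each was above all CD45- libraries in all 4 CD45+ libraries. Pycard, the adaptor of inflammasomes, rose by 2.21 (SE 0.252, adjusted p = 8.82e-07) and Myd88, the adaptor of Toll-like and IL-1 receptors, by 1.03 (adjusted p = 0.000414); both were well above the floor in CD45- cells too, at 11.8 to 21.3 and 19.2 to 40.7 CPM. Il1b stood at 42.8, 21.3, 18.96 and 6.81 CPM against 1.01, 0.683, 0.785 and 0.503 (4.87, adjusted p = 0.000134). Il1b was highest in CD45+ replicate 1, the library with the lowest macrophage genes, as was Il1a, at 23.8, 6.74, 5.94 and 0.717 CPM. Il1rn, the IL-1 receptor antagonist, was lowest there, at 1.66, 39.1, 14.3 and 31.6 CPM, with no count in CD45- libraries.

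Receptors for antibody Fc domains and the ITAM adaptors rose for 13 of 17 genes tested, with none lower and a median of 2.13. With the 8 IgG libraries alone 13 were high enough to test and 7 rose, with a median of 1.71. Tyrobp, the adaptor DAP12, stood at 32.9, 224, 164 and 244 CPM against 1.29, 2.46, 4.04 and 3.15 (5.94, SE 0.575, adjusted p = 7.07e-08), and Fcgr3, a low-affinity IgG receptor, at 78.0, 493, 336 and 414 against 14.2, 6.29, 5.04 and 11.4 (5.15, adjusted p = 1.91e-07). Fcgr1, the high-affinity IgG receptor, had no count in CD45- libraries and stood at 6.72, 42.0, 26.0 and 46.0 CPM, at least 86.2-fold higher. The shared signalling chain Fcer1g, which platelets also use, rose by 2.13 (adjusted p = 0.00121), with 27.1 to 85.1 CPM in CD45- cells. The kinases Syk (0.71, adjusted p = 0.0561, or 0.00992 without CD45+ replicate 2) and Btk (0.44, adjusted p = 0.446) were not called.

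The phagocyte NADPH oxidase rose in 5 of its 6 genes. With the 8 IgG libraries alone 5 were high enough to test and 4 rose. Ncf1, the p47phox organiser, stood at 51.4, 58.8, 50.6 and 58.0 CPM against 7.19, 0.683, 2.69 and 1.76, a rise of 4.09 (SE 0.476, adjusted p = 1.14e-06). The 4 CD45+ libraries lay close together, replicate 1 included, and above every CD45- library. The catalytic chain Cybb stood at 0.532, 12.5, 9.37 and 13.1 CPM, lowest in replicate 1, with 1 CD45- library above 0 (0, 0, 0.112 and 0; adjusted p = 4.7e-05), and its partner Cyba rose by 1.17 (adjusted p = 0.00664). Ncf4, the p40phox subunit, stood at 14.7 to 41.0 against 12.8 to 46.2 CPM (-0.20, adjusted p = 0.806).

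Lysosomal genes rose by smaller folds from a higher base: 19 of 24 were higher and none lower, with a median of 1.21. Ctsc, the protease that activates serine proteases of granules, stood at 168, 834, 618 and 729.9 CPM against 56.0, 96.6, 76.2 and 70.4 (2.98, adjusted p = 1.08e-07), and Gusb, beta-glucuronidase, at 211, 170.2, 156 and 205 against 64.7, 48.1, 42.9 and 58.9 (1.79, adjusted p = 1.5e-06). Ctsc was low in CD45+ replicate 1 and Gusb was not. The acid ceramidase Asah1 rose by 1.25 and the lipase Lipa by 1.48. Lamp1, the major membrane glycoprotein of the organelle, was not called (0.43, adjusted p = 0.0808, or 0.00465 and called higher without CD45+ replicate 1). Cathepsin S, encoded by Ctss, stood at 25.7, 143, 82.9 and 122 CPM with no count in CD45- libraries, at least 267-fold higher (adjusted p = 1.12e-06).

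MHC class I genes rose: H2-K1 stood at 40.8, 46.1, 47.7 and 37.5 CPM against 8.48, 14.3, 12.3 and 16.4 (1.74, SE 0.207, adjusted p = 1.55e-06), H2-D1 rose by 1.14 (adjusted p = 0.000358) and their light chain B2m by 1.43 (adjusted p = 5.79e-05). The 4 CD45+ values of H2-K1 were all above the 4 CD45- values. Class I heavy chains are close in sequence, and reads shared between them cannot be told apart here. Cd74, the class II invariant chain, rose to 9.78 to 27.2 CPM against 0 to 0.560 (adjusted p = 7.84e-06), whereas the class II chains H2-Ab1 (0.88, adjusted p = 0.0871) and H2-Eb1 (1.05, adjusted p = 0.287) were not called and H2-Aa had no count in any of the 8 libraries. The immunoproteasome chain Psmb8 rose by 4.83 (adjusted p = 1.05e-05). In all, 7 of 15 tested genes of the list rose and none fell.

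Complement receptors and lipid genes of macrophages rose as well. C3ar1, the receptor for C3a, stood at 7.92, 247, 138 and 153 CPM against 0, 0, 0.560 and 1.26 (8.26, adjusted p = 1.45e-06), and C5ar1, the receptor for C5a, at 0.399, 250.1, 141 and 151 CPM with no count in CD45- libraries. Replicate 1 was the lowest CD45+ library for both. The urokinase receptor Plaur rose by 2.55 (adjusted p = 0.000657), with less spread across CD45+ libraries, at 59.9, 111, 105 and 96.8 CPM. Coagulation factor X, encoded by F10, fell by 2.54 (adjusted p = 8.73e-06), at 3.41 to 8.07 against 19.6 to 54.9 CPM, and stood at 254 CPM on average in Kit- CD41+ CD45- cells. Of 16 complement and coagulation genes tested, 8 rose and 2 fell. With the 8 IgG libraries alone 14 were high enough to test, 5 rose and 1 fell. Among 16 lipid genes 7 rose and none fell, with Apoe at 390.2, 1434, 996 and 1542 CPM against 142, 236, 240.5 and 322 (2.21, adjusted p = 6.03e-05) and Lpl, lipoprotein lipase, up by 3.02 (adjusted p = 0.000525).

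Of 10 tested genes of granulocyte-monocyte progenitors, 5 rose and none fell. Prtn3, proteinase 3, stood at 53.02, 37.5, 52.2 and 122 CPM against 5.35, 8.88, 4.82 and 11.2 (3.13, adjusted p = 1.32e-06), and Mpo, myeloperoxidase, at 159, 139, 209 and 452 against 7.75, 11.1, 9.19 and 7.05 (4.78, adjusted p = 5.25e-05). Replicate 4 was the highest and replicate 2 the lowest for both. Elane, neutrophil elastase, was at 0, 0, 1.29 and 0.986 CPM and not called (adjusted p = 0.145), and the late granule genes S100a8, S100a9 and Ltf were at or under 1.09 CPM in each of the 8 libraries and were not tested. Early lymphoid genes were low and partly higher, 6 of 12 tested: Flt3 stood at 24.6, 8.86, 12.6 and 5.29 CPM against 3.60, 0.273, 1.01 and 0.629 (3.16, adjusted p = 0.00787), Il7r at 4.79, 4.62, 0.381 and 1.70 with no count in CD45- libraries (adjusted p = 0.00231), and Ighm, whose unrearranged transcripts occur in progenitors, rose to 13.9 to 65.4 CPM. Rag2 and Pax5, which mark committed lymphoid cells, had no count in any of the 8 libraries.

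Receptors for myeloid cytokines differed in their pattern. Of 26 cytokine receptors tested, 13 rose and 2 fell. Csf2ra, the GM-CSF receptor chain, stood at 16.2, 14.7, 13.5 and 13.2 CPM against 1.57, 2.19, 4.82 and 4.91 (2.10, SE 0.31, adjusted p = 3.11e-05), and Csf3r, the G-CSF receptor, at 7.78, 8.33, 8.68 and 10.7 against 2.95, 0.137, 0.560 and 1.13 (2.83, adjusted p = 0.00632). These 2 were even across the CD45+ libraries, in contrast to Csf1r, the macrophage receptor, at 6.52, 66.0, 46.2 and 68.9 CPM against 5.72, 2.05, 4.15 and 3.02 (3.63, adjusted p = 0.000142). Ifngr1, a chain of the interferon-gamma receptor, rose by 1.59 (adjusted p = 6.18e-05), the common gamma chain Il2rg by 1.22 (adjusted p = 0.000114) and the IL-4 receptor Il4ra by 3.43 (adjusted p = 0.00175). The chains of the receptor for IL-3, the cytokine of the medium, were not called: Csf2rb stood at 15.3 to 27.9 against 12.7 to 35.5 CPM and Il3ra at 2.15 to 4.52 against 0.224 to 3.02. Epor, the erythropoietin receptor, fell by 3.33 (SE 0.376, adjusted p = 7.54e-07).

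Of 25 genes associated with stem and progenitor cells 9 rose and 3 fell, with a median change of 0.88. These are 36% and 12% of those tested, against 10.0% and 9.18% of all genes tested. Under anti-Dll4 14 were called higher and 1 lower. Hlf stood at 22.4, 5.90, 18.1 and 9.95 CPM against 1.29, 2.46, 3.36 and 1.39 (2.73, SE 0.576), Angpt1, the ligand of TIE2, at 143, 33.8, 74.0 and 116 against 19.6, 22.3, 22.9 and 34.9 (1.88, adjusted p = 0.000207), and Cd27 at 5.25, 4.47, 3.65 and 7.62 against 0.0922, 0.820, 0.672 and 1.76 (2.67, adjusted p = 0.00534). Cd47, the signal that restrains phagocytosis, rose by 1.06 (adjusted p = 0.000107), Ly6e by 2.13 (adjusted p = 0.000241) and Txnip, a regulator of redox state, by 1.18 (adjusted p = 8.37e-05). Mllt3, a chromatin reader that maintains stem cells and also acts in erythroid and megakaryocytic cells, fell by 3.15 (SE 0.275, adjusted p = 1.41e-08), at 12.6 to 17.5 against 77.7 to 169.8 CPM, and had a mean of 155 CPM in the Kit- CD41+ CD45- libraries. Slamf1, which encodes CD150, stood at 0, 0.303, 0 and 1.52 CPM against 0, 20.1, 9.75 and 32.6 (adjusted p = 0.00124) with a mean of 124 CPM in the Kit- CD41+ CD45- libraries. Cd34 stood at 594 to 1068 against 233 to 541 CPM (1.24, adjusted p = 0.0132); its call was lost without CD45- replicate 2 (adjusted p = 0.0511) or replicate 3 (0.0522). Msi2 (0.06) and Mecom (-0.03) were not called, and Ly6a, which encodes Sca-1, was low in both groups, at 2.53, 0.681, 1.68 and 0.269 and 2.67, 0, 0 and 0 CPM (adjusted p = 0.687, or 0.0202 without CD45- replicate 1, the only one of its group with a count).

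Immediate early genes, which growth factors, stress and tissue dissociation induce within minutes, rose in CD45+ cells for 12 of 21, with none lower. Zfp36, which destabilises cytokine messages, stood at 233, 320.0, 291 and 307 CPM against 104, 61.5, 62.2 and 74.0 (1.93, SE 0.281, adjusted p = 2.53e-05), Atf3 at 213, 196, 164 and 119.9 against 57.5, 23.2, 30.04 and 29.8 (2.30, adjusted p = 0.000188) and Fos at 130.0, 381, 214 and 240.4 against 67.7, 39.1, 51.2 and 75.9 (2.04, adjusted p = 0.000923). The CD45+ values of these 3 genes were all above the CD45- values. Jun rose by 1.49 (adjusted p = 0.00945), Dusp1 by 1.26 (adjusted p = 0.00269) and Ier2 by 0.75 (adjusted p = 0.00248), whereas Nr4a1 (0.63) and Gadd45b (-0.15) were not called. Of the NF-kB and TNF genes 12 of 22 rose: Tnf stood at 1.60, 25.8, 12.1 and 15.6 CPM against 0, 0.683, 1.57 and 0 (4.61, adjusted p = 0.000383), Nfkb1 rose by 1.59 (adjusted p = 0.000997) and its inhibitor Nfkbia by 0.87 (adjusted p = 0.00977). The list had 8 called without CD45+ replicate 1 and 15 without CD45- replicate 1. Of 15 genes induced by interferon 5 rose and 1 fell. The gene that fell was Isg15, a ubiquitin-like modifier, at 0, 0.303, 0.229 and 0.179 CPM against 0.277, 1.91, 2.13 and 1.01 (-2.83, adjusted p = 0.00711), while Usp18, the protease that removes it, stood at 4.32, 4.16, 0.914 and 6.36 against 0, 0.137, 0.560 and 0.881 (3.32, adjusted p = 0.0127). Without CD45+ replicate 1 the list had 3 higher and without replicate 1 of both groups 2, and Mx1, Ifit1 and Ifit3 were too low to test.

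Among targets of glucocorticoids, which the medium held, Cebpd rose by 1.46 (adjusted p = 9.23e-06) and Sgk1 by 1.25 (adjusted p = 0.00486), while Fkbp5 (0.34) and Tsc22d3 (0.07) were not called. With Dusp1, 3 of 11 rose and none fell.

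Of 26 integrin and adhesion genes tested, 8 rose, 1 fell and 17 were not called, with a median change of 0.69. The shares were 30.8% higher and 3.85% lower, against 10.0% and 9.18% of all genes tested. Cd44, the hyaluronan receptor, stood at 72.0, 53.1, 67.7 and 71.3 CPM against 13, 18.0, 19.1 and 28.4 (1.75, SE 0.238, adjusted p = 1.05e-05), and Selplg, the P-selectin ligand PSGL-1, at 67.9, 28.4, 61.9 and 30.03 against 4.52, 3.28, 3.14 and 4.15 (3.63, adjusted p = 0.000336). Selp, P-selectin itself, rose by 3.28 (adjusted p = 0.00204). Itga4, the alpha chain of VLA-4, rose by 1.07 (adjusted p = 0.00737) and Itga6 by 0.72 (adjusted p = 0.00379). Itgb3, the partner of CD41 on platelets, fell by 2.36 (adjusted p = 1.17e-05).

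The BCL2 family showed 6 of 16 genes higher (37.5%, against 10.0% of all genes tested) and none lower. Mcl1, a survival factor of progenitors and myeloid cells, stood at 117, 112, 111 and 117 CPM against 56.0, 66.0, 70.8 and 66.1 (0.82, SE 0.117, adjusted p = 2.07e-05). Its CD45+ values spanned only a few CPM and lay above all CD45- values. Bcl2a1b, the A1 survival gene of leukocytes, stood at 4.72, 5.22, 5.41 and 4.21 CPM with no count in CD45- libraries, at least 14.0-fold higher (adjusted p = 6.86e-05); it has near-identical copies, between which reads may be split. Pmaip1, the pro-apoptotic NOXA, rose by 2.56 (adjusted p = 0.00108) and Bid by 1.02 (adjusted p = 0.00152). Bcl2 (0.42), Bcl2l1 (-0.30) and Bax (-0.18) were not called.

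Metabolic genes changed by small folds. Of 24 glycolysis and hypoxia genes 9 rose, with Gpi1, the second enzyme of the pathway, at 705, 687, 799.9 and 698 CPM against 373, 328, 353 and 387 (1.00, adjusted p = 0.000209), Aldoa up by 0.47 (adjusted p = 0.0037) and the prolyl hydroxylase Egln3 by 1.31 (adjusted p = 0.00365). The glucose transporter Slc2a1 was not called (0.47). Of 22 respiratory chain genes 3 fell (Ndufs3, Ndufv1 and Cox6a1), of 22 cholesterol synthesis genes 4 (Mvk, Fdps, Fdft1 and Stard4), and of 38 cytosolic ribosome genes 6, with medians of -0.15, -0.17 and -0.44. These are 13.6%, 18.2% and 15.8% of those tested, not far from the 9.18% of all genes tested that fell. Without CD45+ replicate 1 none of these 3 lists had a called member, and each of the 7 named here also missed the threshold without at least 1 other library (adjusted p = 0.0514 to 0.137). Without CD45- replicate 1 the ribosome list had 17, and with upper-quartile scaling it had 9. Under anti-Dll4 27 of the 38 ribosome genes were called lower and 1 higher, with a median of -0.63. There 7 respiratory chain genes were lower and none higher, and of the cholesterol genes 4 were lower and 2 higher. No member of the 3 lists had a called difference between the antibodies. Ribosomal genes have many processed copies, and reads may be split among them.

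Cell cycle genes showed a narrow difference under IgG. Mki67 stood at 46.6, 65.8, 49.1 and 61.9 CPM against 108, 143, 133 and 149 and fell by 1.25 (SE 0.191, adjusted p = 4.51e-05), and Ccna2 fell by 0.56 (adjusted p = 0.000123). Among 24 mitosis genes 5 fell (9 without CD45- replicate 1), and among 24 S phase genes 5 fell, each 20.8% against 9.18% of all genes tested. Of the S phase genes Slbp, which binds histone messages, was down by 0.53 (adjusted p = 0.00431) and Tyms, thymidylate synthase, by 0.73 (adjusted p = 0.0112). Plk1 (0.04), Aurkb (0.07) and Mcm6 (0.10) were not called. Under anti-Dll4 13 of the 24 mitosis genes and 6 of the 24 S phase genes were called lower and none higher. No member of these lists had a called difference between the antibodies. A D cyclin and a kinase of D cyclins went in opposite directions: Ccnd3 stood at 218, 208, 185 and 214 CPM against 459.5, 772, 493 and 653 and fell by 1.53 (SE 0.211, adjusted p = 1.23e-05), whereas Cdk6 stood at 29.9, 28.9, 30.1 and 41.3 against 9.50, 12.3, 12.9 and 10.8 and rose by 1.52 (adjusted p = 0.000109). Neither pair of groups overlapped. Ccnd1 (0.10) and Ccnd2 (-0.22) were not called.

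Endothelial genes were present in both populations. Of 30 pan-endothelial genes 3 rose, the same share as over all genes tested (10.0%), and none fell. Their median change was 0.60, against 0.04 over all genes tested, and under anti-Dll4 it was 1.32. The summed level of the 30 was 3562 to 5064 CPM in CD45+ libraries and 1981 to 4341 in CD45- libraries. Cdh5, the cadherin of endothelial junctions, stood at 27.0, 31.9, 39.1 and 22.1 CPM against 46.9, 27.1, 25.1 and 25.2 (-0.05, SE 0.391, adjusted p = 0.952), and Vwf at 39.6, 30.3, 35.6 and 29.0 against 26.6, 33.2, 26.2 and 43.7 (0.06, adjusted p = 0.917). Their ranges overlapped, and in Kit- CD41+ CD45- cells Cdh5 was at 0.572 CPM. Egfl7, a secreted factor of vessels that holds miR-126, rose by 0.95 (adjusted p = 0.00347). The other 2 that rose lay near the threshold, the ETS factor Erg (adjusted p = 0.0405) and the receptor Calcrl (adjusted p = 0.0451), where Erg was not called without any of 6 libraries (CD45+ replicates 1, 3 and 4 and CD45- replicates 2, 3 and 4; adjusted p = 0.0606 to 0.124) and Calcrl without any of 7 (all but CD45- replicate 1; 0.0517 to 0.113). CD45- replicate 1 was the highest of its group for 27 of the 30, Cdh5 among them. With upper-quartile scaling 1 of the 30 was called higher. Without CD45- replicate 1 there were 12, without replicate 1 of both groups 8, and under anti-Dll4 22, with no called difference between the antibodies. Basement membrane genes gave no call among 12 at an adjusted p under 0.05, with the collagen Col4a1 at 79.7 to 110.0 against 85.6 to 119 CPM.

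Genes of the Notch pathway gave 4 higher and 3 lower of 29 (13.8% and 10.3%), near the 10.0% and 9.18% of all genes tested. Mfng, which modifies Notch receptors with sugars, stood at 123, 86.0, 126 and 73.7 CPM against 62.4, 21.5, 29.8 and 23.8 (1.56, SE 0.293, adjusted p = 0.000465). The protease Adam17 rose by 1.03 (adjusted p = 0.000103). Notch1 stood at 6.25 to 19.5 against 9.31 to 16.8 CPM (0.17, adjusted p = 0.778), and the ligand Dll4, the target of the other antibody, at 8.25 to 21.6 against 7.80 to 22.9 (0.34, adjusted p = 0.759). The targets Hes1 (0.35) and Hey1 (0.48) were not called. These ranges overlapped. Of 22 arterial genes 1 rose, Vegfc (1.00, adjusted p = 0.0445), named after its value was seen; its adjusted p was 0.0709 to 0.349 without CD45+ replicate 1 or 3 or CD45- replicate 1, 2 or 3, and without CD45+ replicate 1 no arterial gene was called. Of 25 TGF-beta and BMP genes 1 rose, Smad2 (0.50, adjusted p = 0.023, or 0.0802 to 0.0873 without CD45+ replicate 1 or CD45- replicate 2 or 4), none did without CD45+ replicate 1 and 5 did without CD45- replicate 1. The 4 of 12 venous, lymphatic and scavenger genes that rose were Mrc1, Fcgr2b, Lyve1 and Maf, which tissue macrophages also express; Lyve1 was not called without CD45+ replicate 2 (adjusted p = 0.116) or CD45- replicate 4 (0.0579). The venous factor Nr2f2 stood at 13.4 to 30.1 against 15.5 to 30.2 CPM (adjusted p = 0.98).

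**Figure D4:**
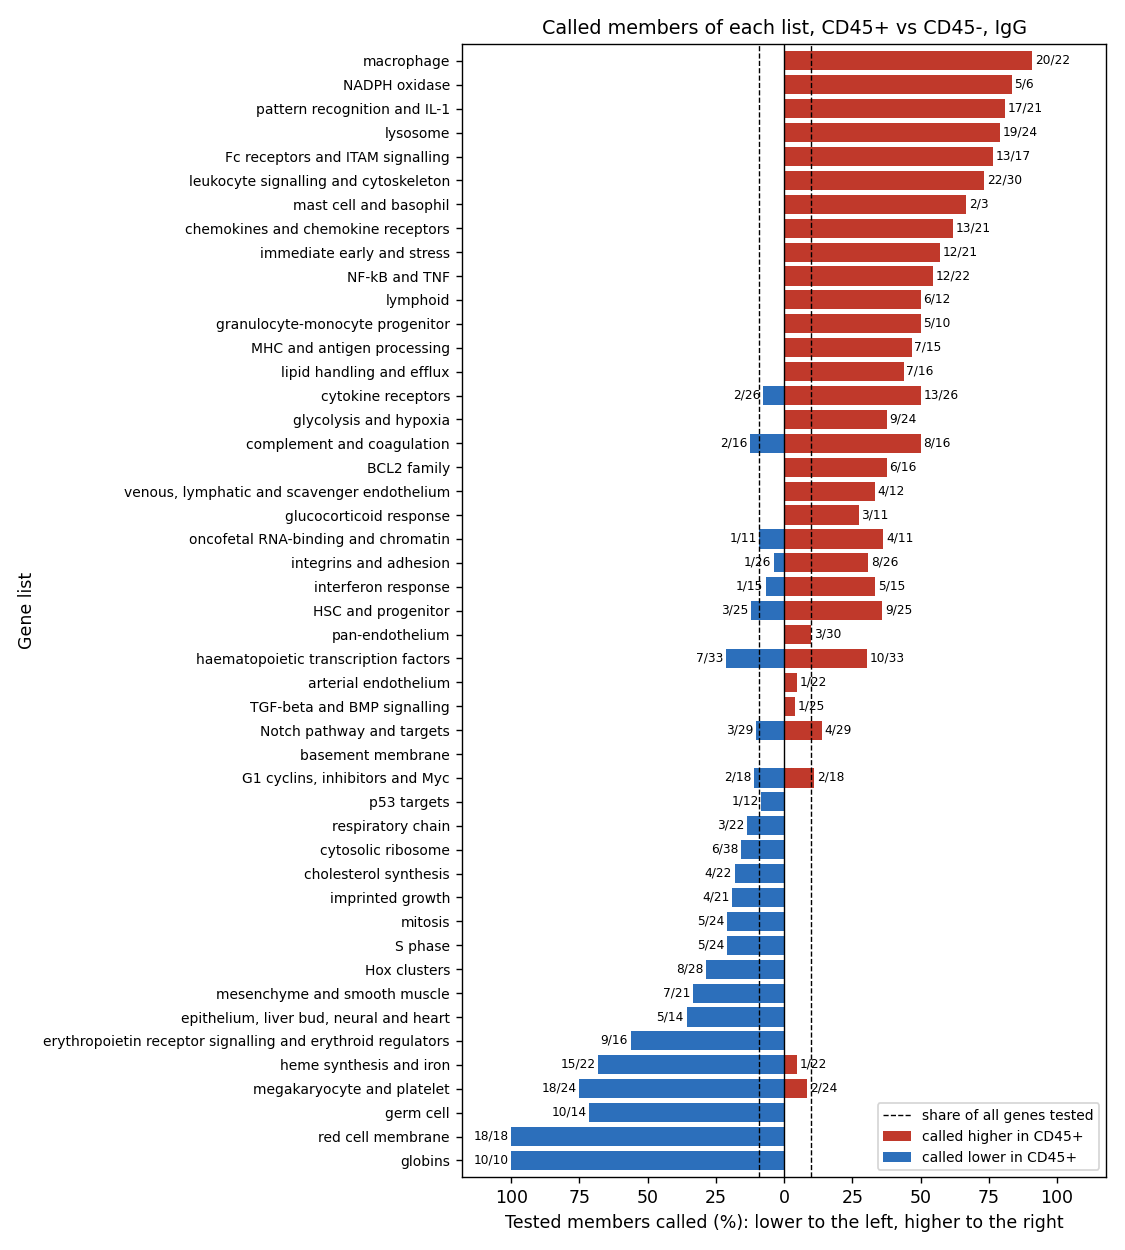
Share of the tested members of each gene list called higher (right, red) and lower (left, blue) in Kit+ CD45+ cells, in percent, with the numbers called and tested where any was called; the dashed lines mark the shares over all genes tested, 10.0% higher and 9.18% lower. Leukocyte, macrophage and immune lists lie on the right, red cell, platelet and germ cell lists on the left, while 3 of 30 pan-endothelial genes and 1 of 22 arterial genes were called higher and none lower, the Notch list had 4 higher and 3 lower of 29, and the respiratory chain 3 of 22 lower and none higher.

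Red cell genes led the falls. All 10 globin genes tested fell, with Hbb-y, an embryonic beta-like globin, at 115, 34.0, 55.3 and 35.7 CPM against 66648, 192765, 153948 and 132771 (-11.15, SE 0.721, adjusted p = 2.56e-10) and Hba-x, the embryonic zeta globin, at 3.33, 17.1, 37.4 and 8.34 against 37875, 105897, 84288 and 73348. With the 8 IgG libraries alone 8 globin genes were high enough to test and all 8 fell. The adult globin Hba-a1 stood at 0.399, 2.65, 5.18 and 1.34 CPM in CD45+ cells and Hbb-bt at 36.99, 2.12, 5.41 and 9.32, above Hba-x in replicates 1 and 4. The copy of Hba-a1, Hba-a2, is near-identical, and reads may be split between them. Alas2, the erythroid enzyme that starts heme synthesis, stood at 0.0665, 0.681, 0.761 and 0.896 CPM against 1106, 2364, 1583 and 1969.8 and fell by 11.54 (SE 0.558, adjusted p = 2.6e-12). Of 22 heme and iron genes 15 fell, among them Alad (-3.11), an early enzyme of heme synthesis, and Fech (-3.78), which inserts the iron. The gene that rose was Hmox1, which breaks heme down, at 73.6, 248, 182 and 184 CPM against 54.4, 26.2, 41.0 and 28.3 (2.19, adjusted p = 0.000101). Thus these enzymes that make heme and the enzyme that degrades it moved in opposite directions.

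All 18 tested genes of the red cell membrane fell. With the 8 IgG libraries alone 17 of that list were high enough to test and 16 fell. Without CD45+ replicate 1, 16 of 18 fell. Rhd stood at 0, 0.378, 0 and 0 CPM against 112, 324, 205 and 258 (adjusted p = 1.22e-10), and Slc4a1, the anion exchanger band 3, had no count in CD45+ libraries and 67.9, 69.0, 41.9 and 77.2 CPM in CD45- libraries, at least 277-fold lower in CD45+ cells. Rhd had counts in 1 of the 4 CD45+ libraries. Trim10 stood at 0, 0.151, 0.229 and 0 CPM against 47.2, 108, 58.0 and 74.3 (adjusted p = 3.21e-10), Hsd3b6, a steroid dehydrogenase, at 0, 0, 0.0761 and 0 against 142, 337, 209.6 and 236 (adjusted p = 2.6e-12), and Hemgn, an erythroid nuclear protein, fell by 8.90 (adjusted p = 1.39e-10). Ube2l6, a conjugating enzyme for ISG15, fell by 5.56 and the metallothionein Mt2 by 6.00. Red cell transcripts thus separated the groups in every library, and their part in other falls was not tested. With the globin genes left out of the counts 2976 genes were called, 1376 higher and 1600 lower.

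Platelet genes fell for 18 of 24. The 2 that rose were Selp and P2ry12, an ADP receptor also found on microglia, at 3.66, 25.1, 19.1 and 27.8 CPM against 0, 7.66, 0 and 1.26 (adjusted p = 0.0134). F2rl2, a thrombin receptor subunit, stood at 1.397, 7.12, 8.22 and 7.35 CPM against 137, 345, 309 and 367 (-5.60, SE 0.41, adjusted p = 9.93e-10), and at 2985 ± 245 CPM (mean ± SD, 4 libraries) in Kit- CD41+ CD45- cells. The levels in CD45- cells lay between those of the other populations, as they did for Gp1bb (0.0665 to 6.58, 36.2 to 214 and 1436 CPM), a chain of the von Willebrand factor receptor, and Pf4, platelet factor 4 (4.46 to 172, 371 to 1918 and 13482 CPM). CD45- replicate 1 was the lowest of its group in 20 of the 24 genes. Under anti-Dll4 the platelet list had 7 members lower and 3 higher. F2rl2 was at 17.1 to 51.7 CPM against 120.0 to 171 there, a change of -2.14 in place of -5.60, and the difference of 3.45 (SE 0.496) was called (adjusted p = 0.00636). Gp6, the collagen receptor of platelets, was at 2.77, 26.4, 13.4 and 25.3 CPM in CD45- libraries under IgG and 1.70 to 4.66 under anti-Dll4, with CD45+ libraries at 0 to 0.305 and 0.279 to 2.87, and its difference was called too (adjusted p = 0.0209). Without replicate 2, 3 or 4 of every group neither difference was called, and without replicate 1 there were 29 called differences.

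Of 14 tested primordial germ cell genes 10 fell and none rose, with a median of -4.29, or -3.66 with 3 genes at their bound. The 4 not called were Kit, Ddx4, Prdm1 and Ifitm3, the last an interferon-induced gene at 99.1 to 237 CPM in CD45+ libraries (0.13, adjusted p = 0.872), and with them the list summed to 158 to 328 CPM in CD45+ libraries and 159 to 747 in CD45- libraries. Dppa3, which encodes Stella, stood at 95.5, 25.02, 182 and 142 CPM in CD45- libraries and at 0, 0.227, 0 and 0 in CD45+ libraries (adjusted p = 1.64e-08). Pou5f1, the pluripotency factor OCT4, stood at 18.1, 1.37, 12.8 and 13.7 CPM with no count in CD45+ libraries (adjusted p = 0.00323), Tfap2c at 7.84, 2.32, 14.2 and 16.5 against 0, 0.227, 0 and 0.0896 (-6.85) and Nanog at 2.86, 0.957, 3.48 and 10.7 against 0.133, 0.227, 0.0761 and 0.0896 (-4.96, adjusted p = 0.00021). In CD45- libraries replicate 2 was the lowest in 12 of 16 genes. Dppa5a, an RNA-binding protein of the same cells, stood at 36.1, 16.5, 43.0 and 70.5 CPM against 0, 0, 0.0761 and 0 (adjusted p = 1.93e-08), and Sox2 at 4.24, 1.09, 6.61 and 6.80 CPM with no count in CD45+ libraries. Under anti-Dll4 Dppa3 was at 42.4 to 193 CPM in CD45- libraries and 0 to 0.310 in CD45+ libraries. The Kit transcript itself was not lower in CD45+ cells, as given above, and the part of germ cells in other falls was not tested.

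Markers of other embryonic tissues were low and mostly on the CD45- side. The mesenchyme list had 7 of 21 lower: Prrx1, a factor of limb and lateral mesoderm, stood at 0, 1.44, 0.609 and 0.627 CPM against 20.4, 7.52, 8.63 and 2.39 (-3.86, adjusted p = 0.00138) and Col3a1 at 0.532, 3.25, 0.0761 and 0.807 against 29.8, 14.3, 14.9 and 2.52 (-3.71, adjusted p = 0.00521). The list had 4 called without CD45+ replicate 1, 6 without CD45- replicate 1 and 3 without replicate 1 of both groups. Krt8, an epithelial keratin, fell by 4.13 (adjusted p = 0.000415) and Epcam by 3.32 (adjusted p = 0.0127), and Alb had no count in any of the 8 libraries. Hox genes fell for 8 of 28 with none higher, led by Hoxc8 at 0.399, 1.21, 0 and 0.179 CPM against 9.59, 4.24, 3.92 and 1.89 (-3.42, adjusted p = 0.00149) and Hoxc9 at 2.86, 0.0757, 0.914 and 0.358 against 8.58, 3.42, 9.30 and 6.67 (-2.69, adjusted p = 0.00218). Without replicate 1 of both groups 5 were called. Hoxa9, a regulator of blood progenitors, was not among them (0.65, adjusted p = 0.314), nor Hoxb4 (0.48). The 8 Hox genes that fell were 28.6% of those tested, against 9.18% of all genes tested. CD45- replicate 1 was the highest of its group in 22 of 37 Hox genes. Under anti-Dll4 5 of the 28 Hox genes were called higher and 3 lower, not far from the 16.6% and 12.6% of all genes tested. Their median there was 0.47 in place of -0.51. No Hox gene had a called difference between the antibodies.

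Imprinted growth genes gave 4 lower of 21 and none higher, and 3 higher without CD45- replicate 1. Phlda2, a brake on placental growth, stood at 1.33, 0.833, 2.51 and 0.717 CPM against 13.2, 18.6, 60.6 and 55.5 (-4.75, SE 0.828, adjusted p = 0.000208), and Grb10, an adaptor of insulin signalling, fell by 1.04 (adjusted p = 0.000559). H19 (-0.76, adjusted p = 0.0554) and Igf2 (0.70, adjusted p = 0.0917, or 0.0363 without CD45- replicate 1), neighbours controlled by a shared imprinting region, had changes of opposite sign and were not called. The fetal regulators Lin28b (0.65), Igf2bp1 (0.36) and Mycn (0.89) were not called, although without CD45- replicate 1 Lin28b (adjusted p = 0.0309) and Mycn (0.011) were. Dnmt3b, a de novo DNA methyltransferase, stood at 151, 74.2, 88.5 and 105 CPM against 21.0, 24.6, 20.1 and 26.2 and rose by 2.19 (SE 0.276, adjusted p = 3.53e-06). Replicate 1 was the highest CD45+ library for it.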

How the data were processed

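Raw counts per gene were used as the authors deposited them, as whole numbers for 29716 genes in 24 libraries. Per the submitters' processing notes the reads went through CASAVA 1.4, FastQC, STAR and HTSeq on mm10, with DESeq2 also named; the sources used here state no role, other version or strand setting. A log2 table the authors deposited (30202 genes, 486 of them absent from the count table) holds log2(count / size factor + 1) to within 5.3e-14 and was used only for that check; 1 value column there belongs to no listed sample and was left out.

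Samples were grouped by title. Genes passing filterByExpr were tested with edgeR 4.0.16 (R 4.3.3, limma 3.58.1) by a quasi-likelihood F-test with TMM scaling over all 6 groups of 4 libraries, without a replicate term, with Benjamini-Hochberg adjustment over 15618 genes at 0.05. The SE is the fold change divided by the square root of F. Library measures were compared by exact permutation over 70 arrangements. The fit was tested on simulated data, where 36% of 2-fold changes and 62% to 72% of 4-fold changes were called. Of the calls there 5.5% were false. A gene that was not called may therefore still differ. Genes were named by small p (15 each way) or large fold (10 each way, lower group from 1 CPM up) among called genes whose higher group averaged 5 CPM or more and whose libraries did not overlap, plus sort markers, the genes with a called difference between antibodies and examples from 48 lists; some genes are not reported here. The comparison, genes and lists were chosen with earlier results of these data known. The alternatives were other scalings and filters, DESeq2 1.42.0, the 8 IgG libraries alone, a replicate term, globins left out, a fold threshold, and each library left out; counts of list members without replicate 1 were added after seeing the data.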

Additional observations from a re-analysis of the deposited data

Results flagged for a closer look

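For 2 genes the contrast of CD45+ with CD45- cells differed between the antibodies by edgeR's quasi-likelihood test. The log2 difference, anti-Dll4 minus IgG, was 3.45 for F2rl2 and 6.65 for Gp6, both platelet genes.

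Among the values given per library, 186 sets of 4 were searched for a library set apart from the other 3, by the gap to its nearest neighbour as a share of the range. Chance alone flags about 1 in 20 such groups, and 15 were found. In CD45+ libraries these were Cdk6 in replicate 4 (0.906), Lsp1 in replicate 4 (0.874) and Gpi1 in replicate 3 (0.837), each the highest, and F2rl2 in replicate 1 (0.838), the lowest. In CD45- libraries they were Cdh5 in replicate 1 (0.91) and P2ry12 in replicate 2 (0.836), the highest. A share of 1, where a single library had any count, was found for Dppa3, Dppa5a, Gp6, Hsd3b6 and Rhd in CD45+ libraries and for Clec7a, Cybb, Elane and Ly6a in CD45- libraries.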

How the results depend on the processing

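The 2998 calls under IgG stayed between 2122 and 3397 under other scalings, filters, DESeq2, subsets of libraries and the replicate block, and fell to 1303 (611 higher, 692 lower) when tested against a fold of 1.5. Leaving out 1 library gave 2315 to 3397 calls. Of the calls, 88.8% remained with upper-quartile scaling and 66.1% with the 8 IgG libraries alone. No named gene that was called changed direction; over 228 tested named genes, 4084 combinations with a setting gave 109 lost and 29 gained calls, 28 of the lost ones in the test against a fold of 1.5. For anti-Dll4, leaving out a replicate of every group gave 2351 to 4950 calls, with 2703 without replicate 2 and 2351 without replicate 4. The 2 called differences between antibodies were 0 without the filter on low counts (1711 at an unadjusted p under 0.05), 29 by DESeq2, 29 without replicate 1, and 0 without replicate 2, 3 or 4 (831, 891 and 643 unadjusted); the cause was not tested. Same-numbered IgG libraries share the first number of their column names, and the labels do not say whether that is a litter, batch or day, so the numbers were not taken to pair the samples: correlations of same-numbered deviations were 0.19, 0.04, 0.13 and 0.12, not all above 0.1, and not every library correlated best with its own number. With the number as a block there were 3334 calls under IgG (1723 higher, 1611 lower), 4876 under anti-Dll4 and 1 difference.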

Other observations

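Mast cell and basophil genes were scarce. Hdc, which makes histamine, rose in CD45+ libraries, at 3.73, 4.77, 19.7 and 9.23 CPM against 0.252 to 1.78 in CD45- libraries (log2 fold change 3.26, adjusted p = 0.00702). The high-affinity IgE receptor gene Fcer1a had counts in 1 of the 8 libraries, 0.151 CPM in CD45+ replicate 2. Gata2, a factor of hemogenic endothelium, progenitors and mast cells, stood at 16.96, 29.0, 29.2 and 21.7 CPM in CD45+ libraries and 24.1, 13.3, 13.2 and 25.1 in CD45- libraries (log2 fold change 0.36, adjusted p = 0.445), and Ikzf1, a lymphoid factor, at 18.8, 13.7, 19.8 and 17.7 against 7.47, 14.1, 16.9 and 16.4 (0.35, adjusted p = 0.433). Kdr, the receptor for VEGF on endothelium, stood at 80.7, 171, 163 and 88.4 CPM against 122, 76.4, 73.1 and 80.3 (0.52, adjusted p = 0.116). The imprinted Snrpn stood at 33.6, 39.7, 41.3 and 45.6 CPM in CD45+ libraries and 54.0, 87.6, 111 and 96.3 in CD45- libraries and fell by 1.12 on the log2 scale (adjusted p = 0.000106), with no overlap.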
